A study of Mus musculus with 3 samples.

Results

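The genes described here are 38 genes of epithelial junctions, cell polarity and blastocoel pumps, measured by RNA-Seq in mouse blastocysts of the diabetes-prone NOD strain and of the diabetes-resistant B6 (C57BL/6) strain. They were taken from the counts table by symbol, as the rows whose symbol is on a list of adherens junction, nectin, tight junction, polarity, sodium pump and aquaporin genes, and they are 38 of the 24063 genes in the table. The study had compared NOD and B6 ES cells, and the blastocysts served to look at gene expression in the embryo itself. There was 1 library from a B6 blastocyst and there were 2 from NOD blastocysts (NOD 1 and NOD 2). Neither group had been treated or genetically modified, and no embryonic age or sex is given in the sources used here. The labels describe whole blastocysts, whereas the study's methods describe inner cell masses isolated by immunosurgery, which removes the outer cells. Because B6 has 1 library, its strain cannot be told apart from its embryo or its library preparation, and nothing in the labels says whether the NOD embryos came from separate litters. The p-values below therefore rest on the spread between the 2 NOD libraries, moderated by that of other genes. They include no spread among B6 embryos.

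The blastocyst holds the first epithelium of the embryo. The outer cells, the trophectoderm, are joined by E-cadherin and nectin at adherens junctions, sealed by claudins and occludin at tight junctions, and given an apical and a basal side by the PAR, Crumbs and Scribble complexes. The sodium pump in their basolateral membrane moves sodium inward, and water follows through aquaporins to fill the blastocoel. The inner cells carry adherens junctions but do not form the seal.

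Counts on genes summed to 12505685 in B6, 33891715 in NOD 1 and 36171013 in NOD 2, so that the B6 library was the shallowest. Counts were scaled by TMM factors (the trimmed mean of M-values, which sets aside the genes that differ most) to CPM, which expresses each count relative to the size of its library. A single count (1) stands for 0.0734 CPM in the B6 library and for 0.0303 and 0.0294 CPM in NOD 1 and NOD 2. The limit that a count of 0 allows, 3 counts, is 0.220, 0.0908 and 0.0882 CPM. The comparison of the strains used edgeR's quasi-likelihood test over 14456 genes. Genes were called where the Benjamini-Hochberg adjusted p was under 0.05 and the change was at least 2-fold. Fold changes are log2, NOD minus B6, each with its standard error (SE). All 38 genes were counted in at least 1 library and passed the filter on low counts.

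Of the 38 genes, 5 were higher in NOD (Pvrl3, F11r, Ocln, Cldn4 and Cldn7), 8 were lower (Cdh1, Pvrl1, Pvrl4, Tjp3, Cgn, Pard3, Scrib and Slc9a3r1) and 25 did not pass the test. Across all genes tested, 10.3% were called higher, 7.39% lower and 17.7% either, against 34.2% of these genes. By an unadjusted p under 0.05 alone the shares were nearer, at 44.7% of the 38 genes and 39.9% of all genes. The genes that rose were tight junction membrane proteins and a nectin. Those that fell encode E-cadherin, nectins and proteins that lie under the membrane as scaffolds, namely Tjp3, Cgn, Pard3, Scrib and Slc9a3r1. In both NOD libraries, 17 of the 38 genes lay above B6, against 45.3% of all genes tested, and 17 lay below, against 39.4%. For Tjp1, Inadl, Aqp3 and Aqp11 the B6 value lay between those of NOD 1 and NOD 2. The median log2 fold change was 0.04 over the 38 genes and 0.26 over all genes tested. With no filter on low counts or with the limma-voom test, 0 genes of the whole table passed, and these values stand with the alternatives at the end.

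**Figure D1:**
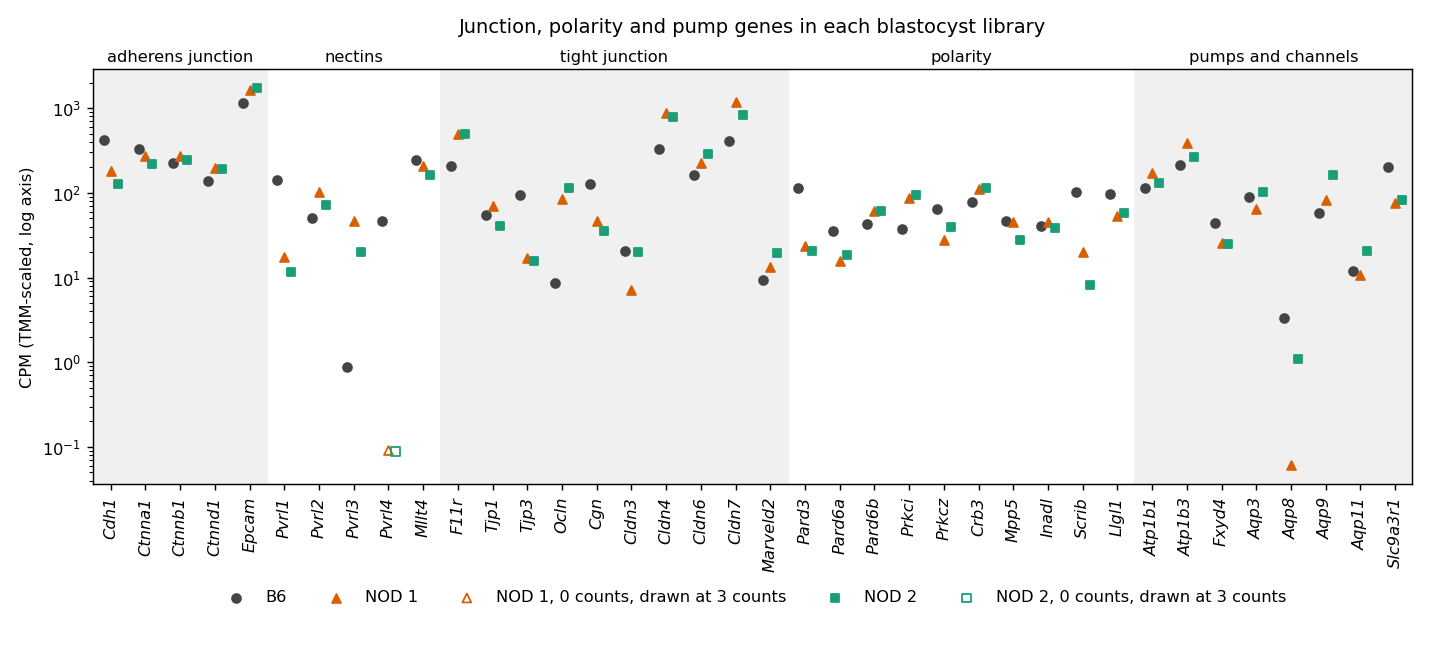
Level of each of the 38 genes in the B6 library (circles), NOD 1 (triangles) and NOD 2 (squares), in TMM-scaled CPM on a log axis, with genes grouped by role and open symbols drawn at the limit of 3 counts where the count was 0. Pvrl4 had 632 counts in B6 and 0 in both NOD libraries, and Pvrl3 stood at 0.881 CPM in B6 against 46.9 and 20.1 in NOD.

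The nectins, immunoglobulin-like adhesion proteins that start cell contacts and bind afadin inside the cell, showed the widest differences. Pvrl4 (nectin-4, NM_027893, chr1:171370173-171388287 of mm10) had 632 counts in B6, or 46.4 CPM, and 0 counts in NOD 1 and in NOD 2. It was present in B6 and not detected in either NOD library. The level was at least 511-fold lower in NOD 1 and at least 526-fold lower in NOD 2, against 3 counts in each library, and the gene passed edgeR's test with an adjusted p of 0.0196. With 0 counts in both NOD libraries it has no spread of its own. That p therefore rests on the spread of other genes and adds nothing to the bound. Among the 4452 genes tested with at least 632 counts in B6, Pvrl4 was the only one (1 gene) with 0 counts in both NOD libraries.

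Pvrl3 (nectin-3, NM_021495, chr16:46447161-46496967) went the other way. Its counts were 12 (B6), 1549 (NOD 1) and 685 (NOD 2), which is 0.881, 46.9 and 20.1 CPM. Both NOD libraries were far above B6, and NOD 1 was above NOD 2 by 2.33 times. From the counts, the ratio of NOD to B6 was 37.8 with an exact 95% interval of 21.6 to 73.3, which covers counting error only, and the fitted log2 fold change was 5.24 (SE 0.87, edgeR adjusted p = 0.0293). Of the 5944 genes that reached at least 20.1 CPM in both NOD libraries, 54 (0.908%) had no more than 12 counts in B6.

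Pvrl1 (nectin-1, NM_021424, chr9:43744576-43807461) had 1913, 586 and 400 counts in the same order, or 140.4, 17.7 and 11.8 CPM. The NOD libraries lay close together and both were well under B6. The log2 fold change was -3.25 (SE 0.39, edgeR adjusted p = 0.0217), which is a B6 level 9.52 times the NOD mean. Pvrl2 (nectin-2) had 690, 3392 and 2443 counts, or 50.6, 103 and 71.8 CPM, and did not pass the test (log2 fold change 0.78, edgeR adjusted p = 0.192). Mllt4, which encodes afadin, the partner that links nectins to actin, had 246, 208 and 164 CPM and did not pass either (log2 fold change -0.41, edgeR adjusted p = 0.302).

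Per kilobase of exon, so that the genes can be set against each other, Pvrl1 made up 41.6% of the nectin level in B6, Pvrl2 38.1%, Pvrl4 19.9% and Pvrl3 0.430%. In NOD 1 the same shares were 4.98%, 73.3%, 0% and 21.7%, and in NOD 2 they were 5.17%, 80.2%, 0% and 14.6%. Summed over the 4 genes, the level was 66.8 (B6), 70.5 (NOD 1) and 45.03 (NOD 2) CPM per kilobase. The B6 sum thus lay between the NOD values, while the leading nectins were Pvrl1 and Pvrl2 in B6 and Pvrl2 and Pvrl3 in NOD.

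Tight junction genes made up 4 of the 5 genes that rose. Of the 10 in the group, 4 rose and 2 fell, so that 60% were called. Of all genes tested, 10.3% were called higher and 17.7% were called in either direction. Together the 10 tight junction genes reached 1423 CPM in the B6 library, against 3023 and 2623 CPM in the NOD libraries. Most of this sum in each library was Cldn7, Cldn4 and F11r, all called higher. The rise of the sum therefore does not describe the rest of the group, in which Tjp3 and Cgn were called lower. Ocln (occludin, a membrane protein with a MARVEL domain that lies in the strands of the seal; NM_008756, chr13:100497367-100552498) had 117, 2828 and 3918 counts, or 8.59, 85.6 and 115 CPM. Both NOD libraries were about an order of magnitude above B6, and their spread was small beside that gap. The log2 fold change was 3.55 (SE 0.44, edgeR adjusted p = 0.0223), an 11.7-fold difference of the NOD mean from B6. Marveld2 (tricellulin, the MARVEL protein of corners where 3 cells meet) lies 43.5 kb from Ocln with no table gene between them. It had 9.47, 13.2 and 19.3 CPM and did not pass the test (log2 fold change 0.78, edgeR adjusted p = 0.330).

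The claudins form the paracellular barrier and its pores, and Cldn7 and Cldn4 had the highest levels per kilobase of the 10 tight junction genes in each library. Cldn7 (NM_016887, chr11:69965421-69967886) had 5623, 38600 and 28032 counts, or 413, 1168 and 824 CPM, with a log2 fold change of 1.27 (SE 0.29, edgeR adjusted p = 0.0482). Cldn4 (NM_009903, chr5:134945124-134946934) had 4473, 29285 and 26516 counts, or 328, 886 and 779 CPM, with a log2 fold change of 1.34 (SE 0.22, edgeR adjusted p = 0.0290). For each of these genes the NOD libraries both lay above B6. The log2 fold change of NOD 1 and NOD 2 alone was 1.43 and 1.25 for Cldn4 and 1.501 and 0.997 for Cldn7. Cldn7 stood just inside the threshold and lost its call with total counts or upper-quartile factors in place of TMM. Cldn6 was also above B6 in both NOD libraries, at 161, 227 and 284 CPM, but did not pass (log2 fold change 0.67, edgeR adjusted p = 0.139). Cldn3, which lies 39.3 kb from Cldn4 on the other strand, had 20.5, 7.11 and 20.3 CPM, so that NOD 2 stood at the B6 level and NOD 1 alone was low. Summed per kilobase over the claudins of the table, B6 stood at 628 CPM, NOD 1 at 1578 and NOD 2 at 1295. Cldn7 gave 50.4%, 56.7% and 48.7% of it and Cldn4 28.9%, 31.1% and 33.3%, and Cldn7, Cldn4 and Cldn6 followed each other in the same order in each library.

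F11r (the junctional adhesion molecule JAM-A, NM_172647, chr1:171437561-171464593) had 2822, 16610 and 16654 counts, or 207, 502 and 489 CPM. NOD 1 and NOD 2 were within 1.03 times of each other and both were above B6. The log2 fold change was 1.26 (SE 0.22, edgeR adjusted p = 0.0323). F11r and Pvrl4 are neighbours on chromosome 1, 49.3 kb apart with 3 table genes between them, and they differed from B6 in opposite directions.

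Of the 3 genes among the 38 for the cytoplasmic plaque of the tight junction, which ties the strands to actin, Tjp3 and Cgn fell and Tjp1 did not pass. Tjp3 (ZO-3, NM_001282096, chr10:81273188-81285781) had 1301, 560 and 529 counts, or 95.5, 16.9 and 15.5 CPM, with a log2 fold change of -2.56 (SE 0.34, edgeR adjusted p = 0.0231). Cgn (cingulin, NM_001037711, chr3:94760070-94786515) had 1713, 1548 and 1202 counts, or 126, 46.8 and 35.3 CPM, with a log2 fold change of -1.61 (SE 0.34, edgeR adjusted p = 0.0415). In both genes each NOD library was below B6, and the NOD libraries differed by 1.09 and 1.33 times. Cgn lost its call with upper-quartile factors, and 20.1% of its 50-base words also occur in the transcripts of BC021767. Tjp1 (ZO-1) had 54.4, 70.3 and 41.2 CPM, and its log2 fold change of 0.04 changed sign under other scalings. Per kilobase, Tjp3 stood at 32.0, 5.68 and 5.21 CPM and Tjp1 at 7.74, 10.01 and 5.86 CPM, so that Tjp3 was the higher in B6, Tjp1 was the higher in NOD 1 and the levels were close in NOD 2.

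**Figure D2:**
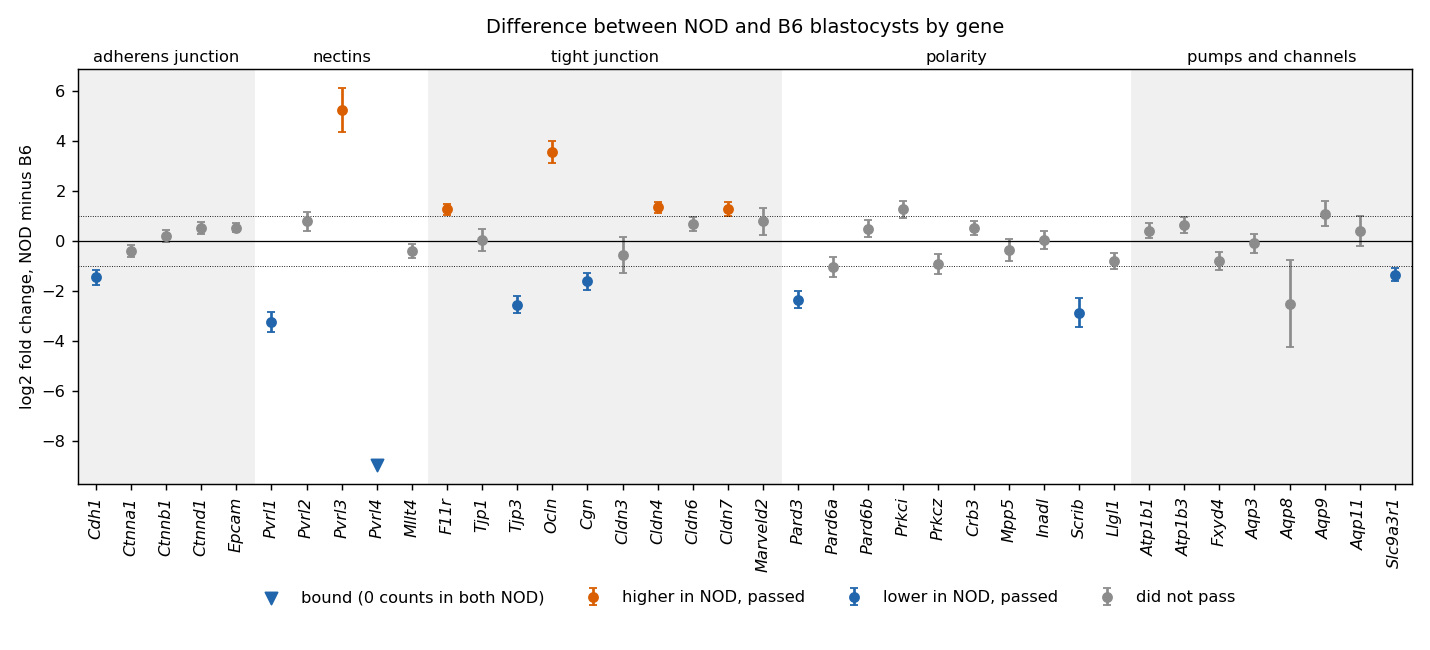
Fitted log2 fold change, NOD minus B6, for each gene with its standard error as a bar. Orange and blue mark genes that passed the test, grey those that did not, dotted lines a 2-fold change and the triangle the bound for Pvrl4, and 4 of the 5 orange points stand among the tight junction genes.

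The bases upstream of the 5 genes that rose, and of Pvrl4, are shown because they belong to the genes that rose together and to the nectin that was not detected in NOD. Each line gives the 250 bases before the transcript start, 5′ to 3′ on the strand of the gene, from RefSeq (GRCm38.p6). Capitals mark 2 words, read on both strands: CACCTG or its reverse CAGGTG, the E-box bound by Snail and ZEB repressors, and GCCNNNGGC, the TFAP2 word. The windows are chr13:100552499-100552748 for Ocln (minus strand), chr1:171437311-171437560 for F11r (plus), chr5:134946935-134947184 for Cldn4 (minus), chr11:69965171-69965420 for Cldn7 (plus), chr16:46496968-46497217 for Pvrl3 (minus) and chr1:171369923-171370172 for Pvrl4 (plus).
Ocln: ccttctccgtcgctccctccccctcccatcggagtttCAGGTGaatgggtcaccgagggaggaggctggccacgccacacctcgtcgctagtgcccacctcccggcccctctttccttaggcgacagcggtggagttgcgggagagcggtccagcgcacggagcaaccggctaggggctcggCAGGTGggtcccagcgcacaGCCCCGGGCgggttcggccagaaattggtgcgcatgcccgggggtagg
F11r: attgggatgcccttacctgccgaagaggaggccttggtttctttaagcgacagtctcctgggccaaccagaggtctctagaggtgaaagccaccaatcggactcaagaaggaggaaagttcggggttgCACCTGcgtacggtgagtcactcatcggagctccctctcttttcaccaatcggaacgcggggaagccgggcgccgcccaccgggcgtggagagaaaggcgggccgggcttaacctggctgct
Cldn4: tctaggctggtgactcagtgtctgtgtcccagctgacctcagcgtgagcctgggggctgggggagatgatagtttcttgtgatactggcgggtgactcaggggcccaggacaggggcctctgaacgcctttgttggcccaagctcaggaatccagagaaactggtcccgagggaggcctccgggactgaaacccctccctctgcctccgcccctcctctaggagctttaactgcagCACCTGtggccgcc
Cldn7: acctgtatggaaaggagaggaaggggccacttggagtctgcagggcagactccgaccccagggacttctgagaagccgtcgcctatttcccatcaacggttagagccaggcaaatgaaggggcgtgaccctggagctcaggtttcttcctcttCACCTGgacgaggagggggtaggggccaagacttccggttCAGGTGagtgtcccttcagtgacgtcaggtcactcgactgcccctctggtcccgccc
Pvrl3: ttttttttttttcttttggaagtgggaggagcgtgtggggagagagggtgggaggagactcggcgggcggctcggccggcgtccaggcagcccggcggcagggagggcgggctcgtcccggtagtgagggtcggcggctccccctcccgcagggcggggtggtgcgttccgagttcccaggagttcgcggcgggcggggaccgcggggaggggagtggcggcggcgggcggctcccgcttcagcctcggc
Pvrl4: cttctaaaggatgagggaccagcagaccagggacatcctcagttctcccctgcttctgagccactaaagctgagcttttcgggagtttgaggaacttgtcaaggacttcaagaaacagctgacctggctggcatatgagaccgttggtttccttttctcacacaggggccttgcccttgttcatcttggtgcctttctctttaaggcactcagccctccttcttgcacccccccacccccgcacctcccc

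In these stretches the E-box occurs in Ocln, F11r, Cldn4 and Cldn7 and in neither nectin, and the TFAP2 word occurs in Ocln. A window of 300 bases, reaching 50 bases past the transcript start, was found for 28 of the 38 genes and for 14536 genes of the table. In that window the E-box occurred in 15 of the 28 genes, against 19.4% of all windows. By outcome, it was present in 4 of the 5 genes that rose, in 0 of the 3 genes with a window that fell (Pvrl4, Pard3 and Slc9a3r1) and in 11 of the 20 that did not pass. The TFAP2 word occurred in 14 of the 28 (19.6% of all windows), the TEAD word CATTCC or GGAATG in 4 (13.5%) and the GRHL word AACNNGTT in 0 (4.0%). The words were searched separately, so that matches may overlap, and a match says nothing about binding. The windows of these genes were also richer in CpG than others, with a median of 21.5 CpG and 62.5% GC against 13 and 56.3%.

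Of the 5 adherens junction genes other than nectins and afadin, Cdh1 fell and the other 4 did not pass. The share called was 20%, close to the 17.7% of all genes. Cdh1 (E-cadherin, the calcium-dependent adhesion protein of compaction; NM_009864, chr8:106603368-106670246) had 5790, 5945 and 4353 counts, or 425, 179.8 and 128 CPM. Both NOD libraries were below B6. Its log2 fold change was -1.47 (SE 0.29, edgeR adjusted p = 0.0373), a B6 level 2.76 times the NOD mean. The catenins, which hold the cadherin tail to actin, did not pass the test. Ctnna1 had 327, 274 and 222 CPM (log2 fold change -0.40), Ctnnb1 had 225, 274 and 242 CPM (0.20) and Ctnnd1 had 137, 199 and 192 CPM (0.52), with edgeR adjusted p from 0.184 to 0.5499. Of the 50-base words of Ctnnd1, 73.0% also occur in the overlapping transcript Gm28635, so that its count is uncertain. Epcam, an adhesion protein of epithelial cells and the gene of the 38 with the highest level per kilobase in B6, had 15873, 53865 and 58738 counts, or 1165, 1629 and 1726 CPM. It was higher in both NOD libraries but did not pass after adjustment (log2 fold change 0.53, SE 0.18, unadjusted p = 0.0346, edgeR adjusted p = 0.101). E-cadherin RNA per kilobase stood at 96.7 CPM in B6 against 40.9 and 29.1 in NOD, and that of beta-catenin was 62.4 against 76.0 and 67.2, so that Cdh1 stood above Ctnnb1 in B6 and below it in both NOD libraries. Of the 50-base words of Ctnnb1, 18.6% also occur in Ulk4.

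Among the 10 polarity genes, 2 fell, 0 rose and 8 did not pass, a share of 20% that is close to the 17.7% of all genes. Pard3 (the PAR3 scaffold of the apical complex, NM_033620, chr8:127064056-127612286) had 1548, 786 and 700 counts, or 114, 23.8 and 20.6 CPM. NOD 1 and NOD 2 were alike and both were below B6. Its log2 fold change was -2.36 (SE 0.33, edgeR adjusted p = 0.0242), a B6 level 5.12 times the NOD mean. Scrib (Scribble, a basolateral scaffold, NM_134089, chr15:76047186-76069730) had 1401, 654 and 276 counts, or 103, 19.8 and 8.11 CPM. Here too both NOD libraries were below B6, but they differed from each other by 2.44 times. The log2 fold change was -2.88 (SE 0.59, edgeR adjusted p = 0.0397), and the call was lost with upper-quartile factors. Llgl1, the basolateral partner of Scribble, had 1328, 1773 and 1974 counts, or 97.5, 53.6 and 58.0 CPM, with a log2 fold change of -0.80 (SE 0.31, unadjusted p = 0.0499, edgeR adjusted p = 0.1253).

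The kinase and adaptor that bind PAR3 showed opposite values for their paralogs. Prkci, an atypical protein kinase C of the apical complex, had 515, 2882 and 3188 counts, or 37.8, 87.2 and 93.7 CPM. It was above B6 in both NOD libraries, with a log2 fold change of 1.26 (SE 0.33, unadjusted p = 0.0137, edgeR adjusted p = 0.0617), and it passed with DESeq2 and with the older edgeR fit. Prkcz, the other atypical kinase, had 63.9, 27.4 and 39.7 CPM and did not pass (log2 fold change -0.93, edgeR adjusted p = 0.153), and 36.7% of its 50-base words also occur in Prkcz2. Per kilobase, Prkci made up 36.3% of the pair in B6, 75.4% in NOD 1 and 69.5% in NOD 2. Pard6a, the PAR6 adaptor, had 486, 518 and 630 counts, or 35.7, 15.7 and 18.5 CPM, with a log2 fold change of -1.06 (SE 0.40, unadjusted p = 0.0459, edgeR adjusted p = 0.119), whereas Pard6b had 43.4, 60.4 and 60.7 CPM (log2 fold change 0.48, edgeR adjusted p = 0.337). The larger share per kilobase was that of Pard6a in B6 (64.0%) and of Pard6b in NOD 1 (53.6%) and NOD 2 (45.9%). These shares are descriptions, since neither paralog of either pair passed the test.

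Crb3, Mpp5 and Inadl, the 3 genes of the 38 that encode the apical Crumbs complex, did not pass the test. Crb3, its membrane protein, had 78.9, 111 and 115 CPM (log2 fold change 0.52), Mpp5 (PALS1) had 46.8, 45.4 and 27.4 CPM (-0.36) and Inadl (PATJ) had 41.0, 45.6 and 38.4 CPM (0.04), with edgeR adjusted p from 0.234 to 0.949. Crb3 was above B6 in both NOD libraries and Mpp5 below it, while the B6 value of Inadl lay within the NOD range and its sign changed with the scaling. The 10 polarity genes together stood at 661 CPM in the B6 library, with NOD 1 at 489.8 and NOD 2 at 480.3. Pard3 and Scrib, which were called lower, carried this difference, at 114 and 103 CPM in B6. They stood at 23.8 and 19.8 CPM in NOD 1 and at 20.6 and 8.11 CPM in NOD 2.

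**Figure D3:**
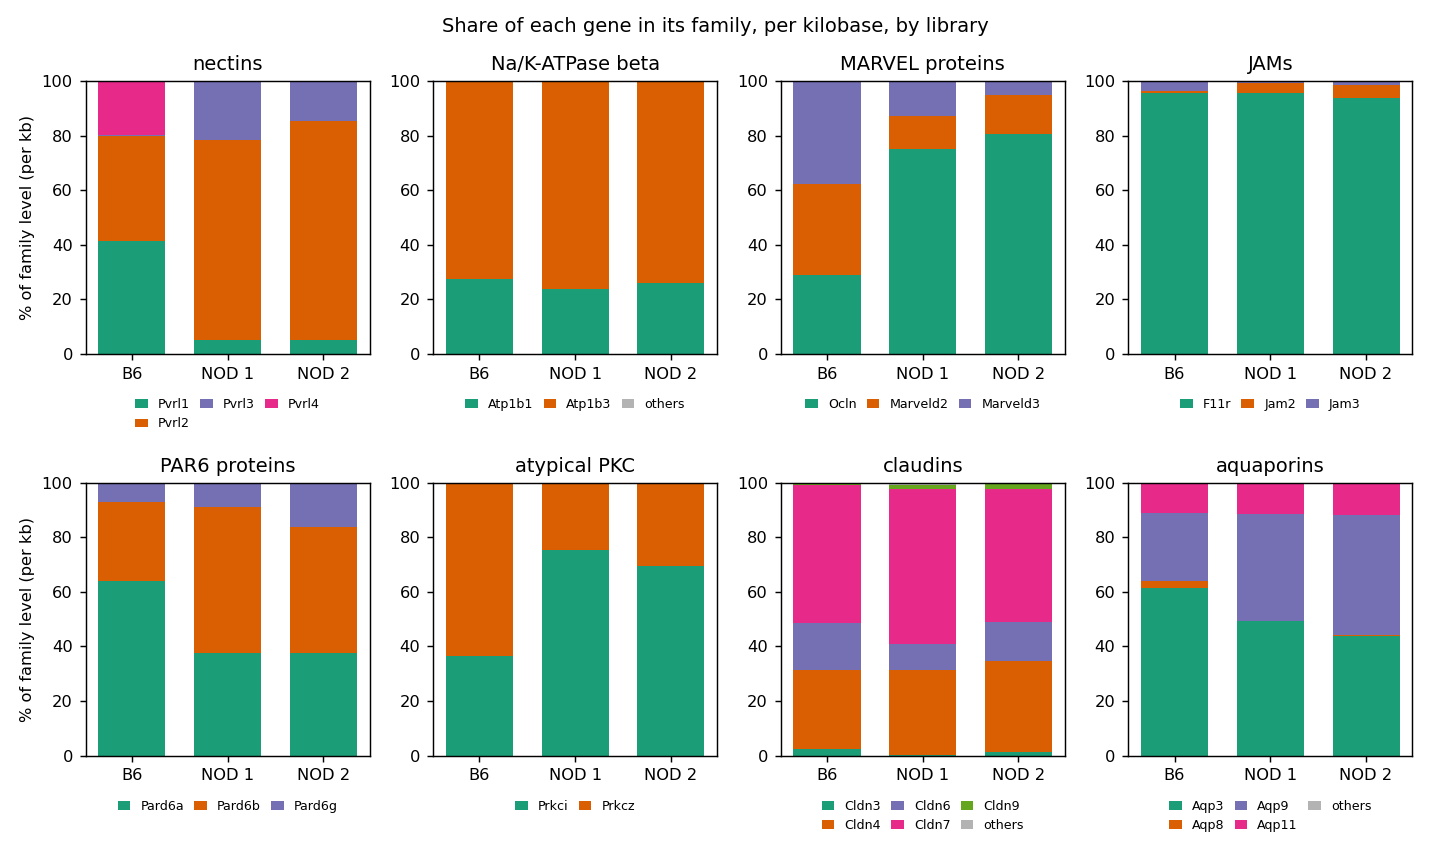
Share of each gene in the summed level of its family, in percent of CPM per kilobase of exon, for B6, NOD 1 and NOD 2, in stacked bars for 8 families. The leading colour changes between B6 and both NOD libraries in the nectins, the MARVEL proteins, the PAR6 proteins and the atypical kinases, and stays the same in the beta subunits of the sodium pump, the JAMs and the claudins.

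Of the 8 pump and channel genes, 1 fell and 7 did not pass, which at 12.5% is below the 17.7% of all genes. Slc9a3r1 (NHERF1, a PDZ scaffold that holds transporters and ezrin at the apical membrane; NM_012030, chr11:115163341-115181178) had 2788, 2519 and 2841 counts, or 205, 76.2 and 83.5 CPM. Both NOD libraries were below B6 and were within 1.10 times of each other. Its log2 fold change was -1.36 (SE 0.26, edgeR adjusted p = 0.0360). Its paralog Slc9a3r2 (NHERF2), which is not among the 38 genes, had 24, 1742 and 937 counts and passed in the other direction (log2 fold change 4.51, SE 0.70, edgeR adjusted p = 0.0271).

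The beta subunits of the sodium pump, which carry the catalytic subunit to the membrane, did not pass the test. Of the 50-base words of Atp1b1, 18.9% also occur in the overlapping gene Nme7. Atp1b1 had 114, 170.1 and 132 CPM (log2 fold change 0.41, edgeR adjusted p = 0.346) and Atp1b3 had 211, 387 and 264 CPM (0.62, edgeR adjusted p = 0.210). Atp1b3 gave the larger share of the beta subunits per kilobase in every library, at 72.4%, 76.3% and 73.7%. The pump regulator Fxyd4 had 44.1, 25.3 and 24.7 CPM (log2 fold change -0.82, edgeR adjusted p = 0.163), below B6 in both NOD libraries.

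The aquaporins, water channels of which Aqp3 and Aqp9 also pass glycerol, gave no call. Aqp3 had 89.0, 64.9 and 102 CPM and Aqp11 had 11.96, 10.8 and 20.3 CPM, and in both genes B6 lay between NOD 1 and NOD 2. Aqp9 had 57.3, 82.3 and 162 CPM (log2 fold change 1.09, SE 0.50, edgeR adjusted p = 0.174), and its NOD libraries differed by 1.97 times. Aqp8 was the least abundant, with 45, 2 and 37 counts. Its B6 level was 54.6 times that of NOD 1 (exact 95% interval 14.3 to 464) but 3.04 times that of NOD 2 (1.92 to 4.83), and the test over both gave an edgeR adjusted p of 0.321. Per kilobase, Aqp3 was the leading aquaporin in B6 (61.4%) and NOD 1 (49.2%), and in NOD 2 Aqp3 and Aqp9 each gave 43.8%. The table lists a non-coding transcript for Aqp9 (NR_073483).

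Genes of the same pathways outside the 38 moved about as often as the background. Of 87 such genes on a list, 58 were tested, of which 5 rose and 7 fell (20.7% called, against 17.7% of all genes). Those that rose were Ssx2ip, Cldn9, Jam2, Cxadr and Slc9a3r2, with log2 fold changes of 2.86, 3.06, 4.49, 2.38 and 4.51. Cldn9, Jam2 and Cxadr are tight junction membrane proteins, and the other tight junction genes on the list gave 2 that fell and 13 that did not pass of 18 tested. Cldn9 lies 138 bases from Cldn6, from which it is transcribed in the opposite direction. Those that fell included Pkp4, Magi1, Sympk, Crb2, Ezr and Stk11, with log2 fold changes of -1.71, -2.58, -3.42, -4.59, -1.60 and -1.97. Magi1 and Sympk are proteins of the plaque, Crb2 is a Crumbs membrane protein, Ezr encodes ezrin, a link from apical membrane to actin, and Stk11 is a polarity kinase. Llgl2, the paralog of Llgl1, did not pass (log2 fold change -0.97, edgeR adjusted p = 0.146).

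Per kilobase, Epcam had the highest level of the 38 genes in B6, at 568 CPM, followed by Cldn7 at 316 and Cldn4 at 182. In NOD 1 the order of the first 2 was reversed, with Cldn7 at 895 and Epcam at 795, and in NOD 2 Epcam stood at 842 and Cldn7 at 631. Epcam and Cldn7 thus changed places between the NOD libraries, and their order does not hold beyond the spread. Cldn4 was the third in each library. The widest changes of rank were those of Ocln, which was number 36 in B6 and 18 by the NOD mean, and of Pvrl1, which was number 18 in B6 and 35 by the NOD mean. Across the 38 genes, NOD 1 and NOD 2 correlated with a Pearson's r of 0.971 on the log2(CPM + 1) scale, and B6 correlated with them at 0.677 and 0.643 respectively. Over all genes tested the same values were 0.962, 0.845 and 0.827. These correlations are across genes, which are not independent replicates, and the B6 library is the shallower in both of its pairs.

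The spread between the NOD libraries was known for 37 genes. Their median absolute log2 ratio of NOD 2 to NOD 1 was 0.36, against 0.43 over 13352 genes, and 4 genes differed at least 2-fold between the NOD libraries (10.8%, against 21.7% of all genes). These were Pvrl3, Cldn3, Scrib and Aqp8, with NOD 2 over NOD 1 at 0.430, 2.85, 0.410 and 18.0. Pvrl3 and Scrib passed edgeR's test, and Pvrl3 was the 1 gene of the 13 called that had an unadjusted p over 0.05 in limma-voom (limma adjusted p = 0.309).

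**Figure D4:**
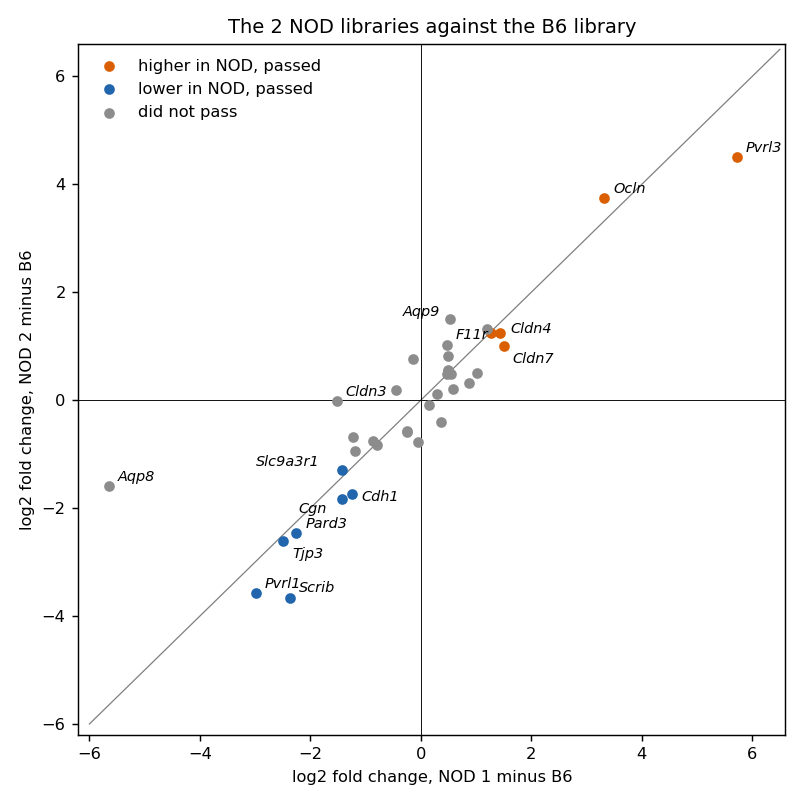
Log2 fold change of NOD 2 over B6 against that of NOD 1 over B6 for 37 genes (Pvrl4, at 0 in both NOD libraries, is left out), with the diagonal marking equal values. Both axes share the B6 library and the colours come from the test on all 3 libraries, so that the common direction of the coloured points is not a separate result, and Aqp8 and Cldn3 lie farthest from the diagonal.

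Markers of the cells that a blastocyst holds were counted in every library. Together the 9 trophectoderm markers reached 3084 CPM in the B6 library, with NOD 1 at 1780 and NOD 2 at 1636. Of the 8 that were tested, 7 were below B6 in both NOD libraries and 0 were called (5 had an unadjusted p under 0.05 in edgeR). Krt18 had an adjusted p of 0.0453 but changed less than 2-fold (log2 fold change -0.82). The 8 epiblast and inner cell mass markers summed to 449, 586 and 855 CPM, with Tdgf1 and Zfp42 called higher and Sox2 lower. They did not share a direction, since 5 were above B6 in both NOD libraries and 3 (Sox2, Klf4 and Esrrb) were below. The 5 primitive endoderm markers summed to 391, 118 and 158 CPM, of which Gata6, called lower, gave 385, 91.5 and 129.8 CPM, with Pdgfra called higher and Foxa2 at 0 counts in all 3 libraries. Both the junction genes that rose and those that fell thus stood beside lower trophectoderm sums in NOD, and the part of cell composition in these results was not tested. In such pooled cells, fewer cells of a type and less RNA per cell cannot be told apart.

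Of the markers of cells from outside the embryo, those of leukocytes, stroma, cumulus and red cells were near 0. Leukocyte markers summed to 0.294, 0.363 and 1.03 CPM, with Ptprc, Lyz2, Fcer1g and Cd79a at 0 in every library, and markers of stroma, cumulus and red cells each stayed under 4 CPM. The 5 markers of oviduct and uterine epithelium, which also carries tight junctions, summed to 65.8, 171 and 225 CPM. Nearly all of this was Wfdc2, with 896, 5655 and 7644 counts, which was called higher in NOD (log2 fold change 1.59, edgeR adjusted p = 0.0382), whereas Foxj1 and Ltf had 0 counts in every library and Ovgp1 had 0, 0 and 7. The part of Wfdc2-expressing cells in the higher claudin and occludin values was not tested.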

How the data were processed

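The 3 blastocyst libraries were made from full-length cDNA amplified by PCR, without molecular identifiers, and sequenced as single-end reads of 50 bases. The authors used STAR to align reads to mm10 and HOMER to count them on exons, with 1 RefSeq transcript kept for each gene, on both strands together, so that overlapping genes cannot be told apart. Reads of both strains were aligned to mm10, and the part of sequence differences between the strains in the counts was not tested. The deposited values are raw counts without normalization. Total counts were 12505685, 33891715 and 36171013. Floors of 3 counts and exact 95% intervals cover counting error only.

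Counts were tested with edgeR 4.0.16 in R 4.3.3 (filterByExpr with a minimum count of 10, TMM factors, quasi-likelihood fit with trended dispersion, 1 residual and 3.78 prior degrees of freedom). The B6 library was assumed to vary like those of NOD. Benjamini-Hochberg adjustment ran over 14456 genes. Each SE was taken from the fold change and its quasi-likelihood F. Levels per kilobase used the exon length listed in the table. Alternatives were DESeq2 1.42.0, limma-voom (limma 3.58.1), other scalings, no filter on low counts, the older edgeR fit, another prior count and each NOD library alone. A fit with the dispersion of the most abundant genes was added after the data were seen. Shared words of 50 bases were counted in GENCODE transcripts. All 38 genes are named, with full statistics for those called or with an unadjusted p under 0.05, and of the other pathway genes those called and a few paralogs or partners of the 38, such as Llgl2. The results of 3 genes outside the 38 are not reported here, although the counts over the lists include them. The 38 genes and all lists were chosen with earlier results of these data known. Promoter windows came from RefSeq and were used where their start equals the transcript start in the table.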

Additional observations from a re-analysis of the deposited data

How the results depend on the processing

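The 13 called genes kept their direction in every refit of the 3 libraries. With no filter on low counts and with limma-voom, 0 genes of the table were called (0 higher, 0 lower) and 0 of the 38, at an unadjusted p under 0.05 for 5568 genes (15 of the 38) and 3924 genes (14 of the 38). Adjusted p of the 13 genes then lay between 0.0649 and 0.0946 with no filter, and between 0.0632 and 0.309 with limma-voom. Total counts only kept 12 calls (Cldn7 lost) and upper-quartile factors 10 (Cgn, Cldn7 and Scrib lost). DESeq2 and the older edgeR fit kept all 13 and added Prkci, and with DESeq2 36.8% of the 38 genes were called against 29.1% of all genes. Over the table, DESeq2 called 4210 genes (2346 higher, 1864 lower), upper-quartile factors 701 lower and the older fit 1612 lower, against 1069 lower in the main test. Of the genes called over the table, 58.1% were higher in NOD, against 47.8% with total counts only and 47.3% with the dispersion of the most abundant genes.

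The median log2 fold change of the 38 genes was -0.004 with DESeq2 size factors and with the DESeq2 test, -0.146 with total counts, 0.063 with no filter, 0.005 with limma-voom and 0.047 to 0.054 with 1 NOD library left out. That of all genes was 0.072 with total counts, 0.171 with limma-voom and 0.107 to 0.169 with 1 NOD library left out. That of the other pathway genes was 0.035 with total counts and 0.052 to 0.191 with 1 NOD library left out. The median of the 38 genes minus that of all genes was -0.23 to -0.17 over the refits, and -0.12 and -0.05 without NOD 1 and without NOD 2. Of the genes not called, Tjp1 and Inadl changed sign in refits. Tjp1 was -0.004 with DESeq2 size factors and the DESeq2 test, -0.143 with total counts and -0.019 with limma-voom, and Inadl was -0.004, -0.004 and -0.148 in the first 3 of these. With 1 NOD library left out, the sign also differed for Tjp1 (-0.401), Inadl (-0.095) and Aqp3 (0.193) without NOD 1 and for Aqp11 (-0.143) without NOD 2. The causes were not tested. No paired analysis was possible because B6 has a single library. A single B6 library limits the precision, and the spread among B6 embryos is not known.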
